A study of Mus musculus with 4 samples.

Results

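The genes described here are 10 regulators and markers of the pluripotent state of mouse embryonic stem cells (ESCs): Pou5f1 (which encodes Oct4), Sox2, Sall4, Dppa2, Dppa4, Dppa5a, Tdgf1, Fbxo15, L1td1 and Trim71. They were taken by gene symbol from a table of 14533 genes, by a rule that names symbols and sets no threshold on a value. All 10 were listed and passed the filter on low values, which kept 13005 genes whose mean in serum or in 2i was 50 normalized counts or more, and each of the 10 reached that mean in both media. RNA was sequenced from sorted ESCs that had been adapted for over 20 days either to medium with fetal calf serum and LIF (serum ESCs) or to serum-free Ndiff 227 medium with LIF and the inhibitors PD0325901, which blocks MEK, and CHIR99021, which blocks GSK3 (2i ESCs). The labels place all cells in late G1-phase, the series description in early G1-phase, and they name no cell line. There were 2 libraries per condition and 4 in all, described by the submitters as biological replicates, and the groups differ in the whole medium and not in the inhibitors alone.

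Oct4, a POU-domain protein, and Sox2, an HMG-box protein, bind DNA side by side at many enhancers of ESCs, and loss of either ends self-renewal. Sall4 is a zinc finger protein that works with them and with the NuRD complex. Dppa2 and Dppa4 are chromatin-bound SAP-domain proteins that work as a pair and prime genes of the 2-cell embryo and bivalent promoters, whereas Dppa5a encodes a small protein with an RNA-binding KH domain. L1td1 and Trim71 encode RNA-binding proteins linked to the Lin28 and let-7 axis of early development. Tdgf1 (Cripto) is the membrane-anchored co-receptor for the ligand Nodal, and Fbxo15 is an F-box gene long used as a reporter of the pluripotent state.

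None of the 10 genes was called different between serum and 2i ESCs (limma with Benjamini-Hochberg adjustment, lowest adjusted p-value 0.753), in a test that called 0.0154% of all genes (2-fold or more, with an adjusted p-value under 0.05). L1td1 showed the largest difference, with a level 4.46-fold higher in serum ESCs (log2 fold change 2.16, SE 0.63), and Fbxo15 the largest in the other direction, 2.91-fold higher in 2i ESCs (log2 fold change -1.54, SE 0.60). For 5 genes (L1td1, Dppa2, Sall4, Dppa4 and Trim71) both serum values lay above both 2i values, which held for 20.5% of all genes, and for 2 genes (Dppa5a and Fbxo15) both 2i values lay above both serum values, which held for 19.4%. Values of Pou5f1, Sox2 and Tdgf1 overlapped between the conditions. The same 5 genes had a log2 fold change above 1 (9.89% of all genes) and Fbxo15 had one below -1 (15.9% of all genes).

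With no adjustment for the number of genes tested, 2 of the 10, L1td1 and Sall4, had a 2-fold higher level in serum and a p-value under 0.05 (2.97% of all genes), and 1, Fbxo15, a 2-fold higher level in 2i (3.0% of all genes). On whole reads edgeR called 0 of the 10 genes and 0 of all genes. DESeq2 on the same reads called 1 of the 10, L1td1 (log2 fold change 2.32, adjusted p-value 0.0218), while calling 1.93% of all genes. So did limma with the replicate number as a block (adjusted p-value 0.0375), which called 1.56% of all genes. In the other settings tried, the adjusted p-value of L1td1 was 0.333 to 1. The median log2 fold change of the 10 genes was 0.72, and that of all genes tested was 0.0047.

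**Figure D1:**
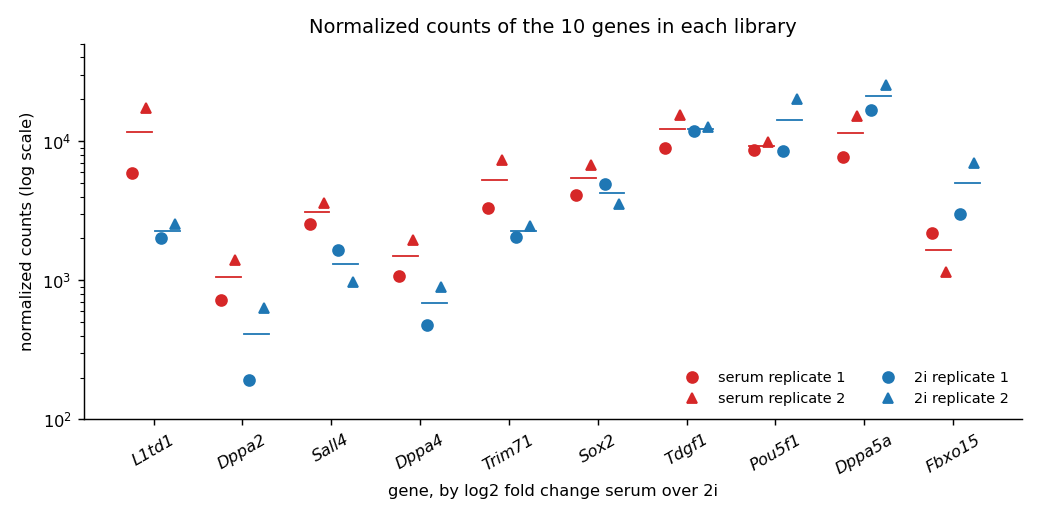
Normalized counts (log scale) of each gene in the 2 serum libraries (red) and the 2 2i libraries (blue), with circles for replicate 1, triangles for replicate 2 and short lines for the group means, ordered by log2 fold change. L1td1, Dppa2, Sall4, Dppa4 and Trim71 lay higher in both serum libraries, Dppa5a and Fbxo15 in both 2i libraries, and the others overlapped.

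The libraries did not stand in 2 tight groups. Whole reads recovered from the table totalled 18939401 to 26570098 per library, of which protein-coding genes took 46.9% to 76.3%. Principal component 1, with 54.0% of the variance of the log2 values, separated replicate 1 from replicate 2 of both conditions. Principal component 2, with 30.4%, separated the media. On it serum replicates 1 and 2 lay at 56.2 and 74.6, and 2i replicates 1 and 2 at -35.1 and -95.7. The 10 genes together took 0.362% (serum replicate 1), 0.568% (serum replicate 2), 0.397% (2i replicate 1) and 0.579% (2i replicate 2) of protein-coding reads, so that this share lay closer between libraries of the same number than between those of the same medium. Markers of other cell types were not even, and not all of them were low. Of 10 primitive endoderm markers 5 were listed, summing to 75.0 to 156 normalized counts in serum and 256 to 337 in 2i. Of these counts Gata4 held 13.0 and 42.8 in serum replicates 1 and 2 and 152 and 169 in the 2i pair. Gata4 passed the filter through 2i alone, so its side was bound to the filter and nothing is read from its direction. Of 8 trophoblast markers 3 were listed, summing to 229 to 360.2 in serum and to 213 and 2696 in 2i. Elf5 alone held 2215 in 2i replicate 1, above the 2021 of L1td1 in that library. Of 8 early germ layer markers 5 were listed (576 to 839 in serum, 526 to 872 in 2i), and of 8 fibroblast markers 3 (235 to 271 in serum, 201 to 289 in 2i). Their part in the results was not tested. In bulk RNA, fewer cells that express a gene and less of its RNA per cell cannot be told apart.

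Upstream sequence was held for 5 of the 10 genes (Pou5f1, Sox2, L1td1, Tdgf1 and Trim71). The 250 bases before the RefSeq start (GRCm38.p6) are shown for L1td1 and Trim71, both higher in both serum libraries, and for Pou5f1 and Sox2, whose products lead the network (of 2 starts listed for Pou5f1, the upstream one is shown). They lie at chr4:98726504-98726753 (plus strand, L1td1), chr9:114564370-114564619 (minus strand, Trim71), chr17:35505782-35506031 (plus strand, Pou5f1) and chr3:34649745-34649994 (plus strand, Sox2). Letters were searched on both strands for ATGCAAAT (the octamer bound by POU proteins), ACAAAG (a SOX core), TTCCCGC (E2F), GGGCGG (the GC box), TATAAA (the TATA box) and CCAAT. Matches are in capitals, their distances are counted from the first base of the match, and the E2F and GC box letters can overlap one another.
L1td1: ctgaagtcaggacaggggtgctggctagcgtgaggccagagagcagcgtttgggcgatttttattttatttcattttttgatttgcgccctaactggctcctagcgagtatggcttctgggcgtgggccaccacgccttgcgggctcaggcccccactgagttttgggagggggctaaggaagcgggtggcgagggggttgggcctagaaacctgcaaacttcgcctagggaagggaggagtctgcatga
Trim71: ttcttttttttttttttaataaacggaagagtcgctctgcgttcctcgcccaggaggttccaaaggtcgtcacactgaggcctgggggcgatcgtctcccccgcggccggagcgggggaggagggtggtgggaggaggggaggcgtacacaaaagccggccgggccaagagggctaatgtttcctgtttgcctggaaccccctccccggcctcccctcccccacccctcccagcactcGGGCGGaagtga
Pou5f1: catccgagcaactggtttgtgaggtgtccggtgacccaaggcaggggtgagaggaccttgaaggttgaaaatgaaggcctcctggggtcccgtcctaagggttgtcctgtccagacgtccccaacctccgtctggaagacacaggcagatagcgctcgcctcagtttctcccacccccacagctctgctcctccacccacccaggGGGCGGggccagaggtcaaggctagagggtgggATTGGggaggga
Sox2: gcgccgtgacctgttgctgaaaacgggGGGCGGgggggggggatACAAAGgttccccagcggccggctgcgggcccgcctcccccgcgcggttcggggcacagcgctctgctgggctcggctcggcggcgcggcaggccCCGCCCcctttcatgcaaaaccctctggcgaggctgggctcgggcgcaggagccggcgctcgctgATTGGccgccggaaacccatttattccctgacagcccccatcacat

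The octamer, E2F and TATA letters were in none of these windows, and over all 32851 windows of the table they occurred in 1.60%, 3.82% and 12.4%. The GC box was found 12 bases before the start of Trim71, 45 bases before that of Pou5f1, and at 223 and 111 bases before that of Sox2 (32.7% of all windows hold it). Sox2 also had the SOX core at 206 bases (16.5% of all windows) and, like Pou5f1 at 12 bases, a CCAAT match, at 46 bases (33.8% of all windows). The L1td1 window held none of the 6. Its GC content was 57.6%, against 62.8% for Trim71, 62.0% for Pou5f1, 72.0% for Sox2 and a median of 52.4% over all windows. A match describes letters, not binding.

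Among the core transcription factors, Pou5f1 (chr17:35642982-35647721, plus strand, mm9) had 8653 (serum replicate 1) and 9858 (serum replicate 2) normalized counts against 8452 (2i replicate 1) and 20050.3 (2i replicate 2). The group means were 9255 ± 852 (SD, n = 2) in serum and 14251 ± 8201 (SD, n = 2) in 2i, and 3 of the 4 libraries lay close together, with 2i replicate 2 alone above them. Its log2 fold change was -0.50 (SE 0.61, 95% confidence interval -1.98 to 0.99, limma, adjusted p-value 0.858), and without 2i replicate 2 it was 0.13, the opposite sign. Oct4 transcript was thus high in both media, and the data leave room for a difference of more than 2-fold towards 2i. Sox2 (chr3:34548927-34551383, plus strand, mm9) had 4090.1 (serum replicate 1) and 6726 (serum replicate 2) normalized counts against 4944 (2i replicate 1) and 3523 (2i replicate 2). The groups overlapped, since serum replicate 1 lay between the 2i libraries. The log2 fold change was 0.33 (SE 0.51, 95% confidence interval -0.90 to 1.56, limma, adjusted p-value 0.893), and without serum replicate 2 it was -0.03. Sox2 is a single-exon gene inside the noncoding gene Sox2ot on the same strand, which held 8.73 to 53.5 normalized counts.

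Sall4 (chr2:168573832-168593443, minus strand, mm9) had 2561 (serum replicate 1) and 3623 (serum replicate 2) normalized counts against 1645 (2i replicate 1) and 979.7 (2i replicate 2). Both serum libraries lay above both 2i libraries, with means of 3092 ± 750.4 (SD, n = 2) and 1313 ± 471 (SD, n = 2). The level was 2.40-fold higher in serum (log2 fold change 1.26, SE 0.49, 95% confidence interval 0.09 to 2.44), with an adjusted p-value of 0.753 (limma), and the log2 fold change was 0.89 to 1.64 with any 1 library left out. The gene overlaps Gm14261 on the opposite strand, which held 4.15 to 46.0 normalized counts; the counting was not stated to use strand, so their reads cannot be told apart.

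Genes related to these factors gave no calls either. Of 14 POU and SOX relatives 10 were tested, and 0 were called (limma). Of these 10, 3 reached a mean of 50 normalized counts in serum but not in 2i and 2 in 2i but not in serum, among them Sox11 and Sox21, so their side was bound to the filter. Sox11, a factor of neural progenitors, was at the upper end with 123 (serum replicate 1) and 127 (serum replicate 2) normalized counts against 50.9 (2i replicate 1) and 5.82 (2i replicate 2). Sox21 was at the lower end (log2 fold change -1.89) and was the 1 gene of the list beyond 2-fold whose unadjusted p-value was under 0.05. Of all genes, 3.0% passed in that direction. All 14 genes of the Sall family and NuRD were tested, and 0 were called (limma). Of these 14, 0 passed 2-fold at an unadjusted p-value under 0.05 (5.97% of all genes). Their median was 0.36, from -0.92 for Sall2 to 0.98 for Mbd3, a core subunit of NuRD.

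Of 22 genes of the Oct4 and Sox2 network 20 were tested, and 0 were called (limma). Beyond 2-fold at an unadjusted p-value under 0.05, 2 were higher in serum (2.97% of all genes). By the same measure 1, Dppa3, was higher in 2i (3.0% of all genes). Dppa3 (Stella), a maternal factor that guards the methylation of the early embryo, was at the lower end. It reached the filter through 2i alone, so its side was bound to the filter and nothing is read from its direction. Dppa3 had 18.0 (serum replicate 1) and 17.5 (serum replicate 2) normalized counts against 244 (2i replicate 1) and 391 (2i replicate 2). The log2 fold change of Dppa3 was -4.05 (SE 0.74, limma, adjusted p-value 0.753). DESeq2 on whole reads called Dppa3, but it was run on genes that passed the same filter, so nothing is read from that call either.

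**Figure D2:**
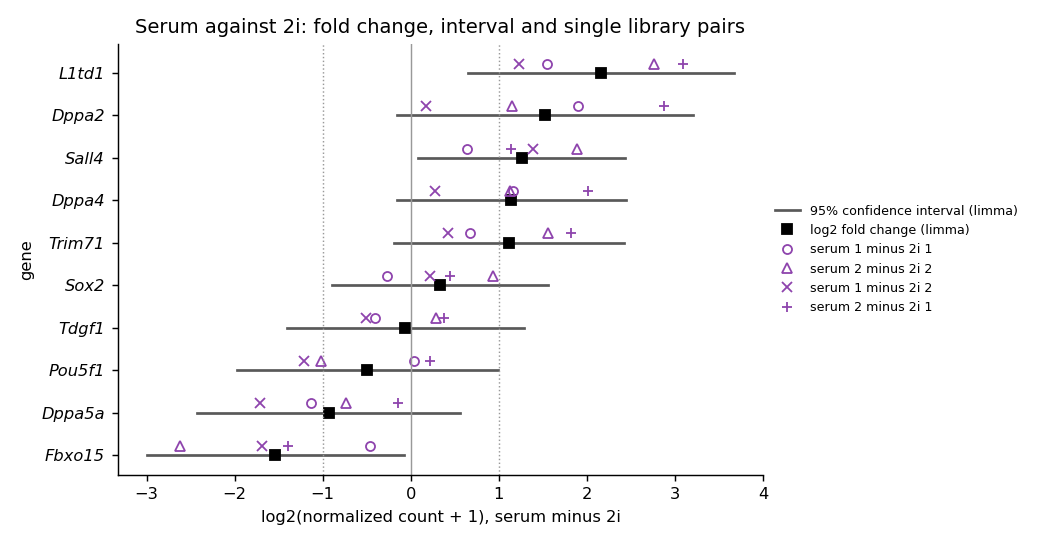
Log2 fold change of each gene (black squares, serum minus 2i on the scale log2(normalized count + 1)) with its 95% confidence interval from limma (lines) and the difference of each serum library from each 2i library (purple marks); dotted lines mark 2-fold. The intervals of L1td1, Sall4 and Fbxo15 lie on 1 side of 0, and the 4 single differences of Pou5f1, Sox2 and Tdgf1 lie on both sides.

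L1td1 (chr4:98393425-98405171, plus strand, mm9) showed the widest gap between the media. It had 5920.1 (serum replicate 1) and 17208 (serum replicate 2) normalized counts against 2021 (2i replicate 1) and 2532 (2i replicate 2). The lower serum value was above the higher 2i value, the 2i libraries differed by 1.25-fold and the serum libraries by 2.91-fold. The means were 11564 ± 7982 (SD, n = 2) in serum and 2276 ± 361 (SD, n = 2) in 2i, and the log2 fold change of 2.16 (95% confidence interval 0.64 to 3.67) exceeded that of 98.6% of all genes tested. With 1 library left out the log2 fold change of L1td1 was 1.39 (without serum replicate 2) to 2.93 (without serum replicate 1). The 4 single differences between a serum and a 2i library ran from 1.23 to 3.09 on the log2 scale, so each was beyond 2-fold.

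Trim71 (chr9:114420393-114473487, minus strand, mm9), a ubiquitin ligase of the TRIM-NHL family that represses mRNAs, had 3299 (serum replicate 1) and 7269.5 (serum replicate 2) normalized counts against 2065 (2i replicate 1) and 2471 (2i replicate 2). As for L1td1, serum replicate 2 was the highest and the 2i libraries were close to each other. The means were 5284 ± 2808 (SD, n = 2) and 2268 ± 287 (SD, n = 2). The level was 2.17-fold higher in serum (log2 fold change 1.12, SE 0.54, 95% confidence interval -0.19 to 2.42, limma, adjusted p-value 0.753), with 0.55 to 1.69 when 1 library was left out.

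All 16 Lin28 and microRNA factors were tested, and 0 were called (limma). Their median log2 fold change was 0.70, against 0.0047 for all genes tested, and 13 of the 16 had a positive value. Lin28a, which blocks let-7 processing, was at the upper end, with 2656 (serum replicate 1) and 5038 (serum replicate 2) normalized counts against 743 (2i replicate 1) and 428 (2i replicate 2). Its log2 fold change was 2.70 (SE 0.54, limma, adjusted p-value 0.753), and it was called by DESeq2 on whole reads (adjusted p-value 0.000849). Lin28a and its paralog Lin28b were the 2 genes of the list beyond 2-fold whose unadjusted p-value was under 0.05. Of all genes, 2.97% passed in that direction. Lin28b had 388 and 1111 in the serum pair and 274 and 122 in the 2i pair. Trim3, a TRIM-NHL relative of Trim71, was at the lower end with -0.92. For 7 of the 16 both serum values lay above both 2i values (20.5% of all genes), and for 3 they lay below both (19.4% of all genes).

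Dppa4 (chr16:48283848-48294405) and Dppa2 (chr16:48310590-48319836) are neighbours on the plus strand of mm9, 16184 bases apart. Dppa2 had 717 (serum replicate 1) and 1410.4 (serum replicate 2) normalized counts against 191 (2i replicate 1) and 637 (2i replicate 2). Dppa4 had 1072 (serum replicate 1) and 1942 (serum replicate 2) against 479.6 (2i replicate 1) and 889 (2i replicate 2). Both genes were highest in serum replicate 2 and lowest in 2i replicate 1, and for both the serum values lay above the 2i values. The means of Dppa2 were 1064 ± 490 (SD, n = 2) in serum and 414 ± 316 (SD, n = 2) in 2i, and those of Dppa4 were 1507 ± 616 (SD, n = 2) and 684 ± 289 (SD, n = 2). Dppa2 was 2.88-fold higher in serum (log2 fold change 1.52, SE 0.70, 95% confidence interval -0.15 to 3.20) and Dppa4 2.21-fold (log2 fold change 1.14, SE 0.54, 95% confidence interval -0.15 to 2.44), both with an adjusted p-value of 0.753 (limma). Per kb of exon, the level of Dppa2 was 0.527 (serum replicate 1), 0.572 (serum replicate 2), 0.314 (2i replicate 1) and 0.565 (2i replicate 2) times that of Dppa4. In 3 of the 4 libraries this ratio was nearly the same, and 2i replicate 1 stood below them. With 1 library left out the log2 fold change of Dppa2 was 0.66 to 2.39 and that of Dppa4 0.70 to 1.59.

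Dppa5a (chr9:78214859-78215984, minus strand, mm9) had 7699 (serum replicate 1) and 15182 (serum replicate 2) normalized counts against 16846 (2i replicate 1) and 25318 (2i replicate 2). Both 2i libraries lay above both serum libraries, by little for the nearest pair, and replicate 2 was the higher in either medium. The means were 11440.3 ± 5291 (SD, n = 2) and 21082 ± 5991 (SD, n = 2), 1.91-fold higher in 2i (log2 fold change -0.93, SE 0.62, 95% confidence interval -2.43 to 0.56, limma, adjusted p-value 0.759). Per kb, the level of Dppa5a was 17.8 and 19.4 times that of Dppa4 in the serum libraries and 87.0 and 70.6 times in the 2i libraries. The Dppa genes did not share a direction, since Dppa2 and Dppa4 lay higher in serum. Copies limit all 3 values. Only 32.8% of the 43-base words of Dppa5a, 64.3% of those of Dppa2 and 63.3% of those of Dppa4 occur in no other annotated gene, and reads were 43 bases long. Of the annotated copies of Dppa4, Gm14058 was listed, at 35.9 to 91.0 normalized counts, and adding it to Dppa4 gave a log2 fold change of 1.12.

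Genes of the 2-cell stage are known targets of Dppa2 and Dppa4. Of 20 on the list, 8 were in the table and 7 tested, and 0 were called (limma). Of these 7, 0 passed 2-fold at an unadjusted p-value under 0.05 (5.97% of all genes). All 7 tested genes reached a mean of 50 normalized counts in 2i and none did in serum, so the filter itself fixed their direction and nothing is read from it. Their log2 fold changes ran from -0.88 for Zscan4c to -4.84 for Pramel6. Zscan4c had 20.0 (serum replicate 1) and 41.8 (serum replicate 2) normalized counts against 56.1 (2i replicate 1) and 52.4 (2i replicate 2). Pramel6 was listed at 0 (serum replicate 1) and 4.86 (serum replicate 2) against 12.5 (2i replicate 1) and 358 (2i replicate 2). The values are low, and several of these genes are near-identical copies whose reads the estimation divides.

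Tdgf1 (chr9:110842114-110848662, minus strand, mm9) had 8959.7 (serum replicate 1) and 15497 (serum replicate 2) normalized counts against 11910.4 (2i replicate 1) and 12734 (2i replicate 2). Both 2i values lay between the serum values, and the means were 12229 ± 4623 (SD, n = 2) and 12322 ± 583 (SD, n = 2). The log2 fold change was -0.06 (SE 0.56, 95% confidence interval -1.41 to 1.28, limma, adjusted p-value 0.984), an interval that holds 2-fold differences in either direction. Its sign turned without serum replicate 1 (0.33) and after quantile normalization (0.17). Of 17 genes of the Nodal pathway 12 were tested, and 0 were called (limma), with a median of -0.05. The type II receptor Acvr2a was at the upper end (0.71) and the convertase Pcsk6, which cleaves the Nodal precursor, at the lower end. Pcsk6 had 694 (serum replicate 1) and 869 (serum replicate 2) normalized counts against 1547 (2i replicate 1) and 1829 (2i replicate 2), a log2 fold change of -1.11. It was the 1 gene of the list beyond 2-fold whose unadjusted p-value was under 0.05. Of all genes, 3.0% passed in that direction.

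Fbxo15 (chr18:85104550-85150768, plus strand, mm9) had 2171 (serum replicate 1) and 1140.1 (serum replicate 2) normalized counts against 2993 (2i replicate 1) and 6998 (2i replicate 2). Both 2i values lay above both serum values, and it was the 1 gene of the 10 that was lower in serum replicate 2 than in serum replicate 1. The means were 1656 ± 729 (SD, n = 2) in serum and 4995 ± 2832 (SD, n = 2) in 2i. The log2 fold change of -1.54 had a 95% confidence interval from -3.00 to -0.08 and an adjusted p-value of 0.753 (limma), and it was -2.15 to -0.93 with 1 library left out. Fbxo15 overlaps 1700034H14Rik on the opposite strand, which held 33.0 to 389 normalized counts and ran the other way, highest in serum replicate 2. The 7 genes of the SCF ubiquitin ligase core, into which F-box proteins plug their substrates, were all tested. Of these 0 were called (limma) and 0 passed 2-fold at an unadjusted p-value under 0.05 (5.97% of all genes). Their median was -0.01, from -0.44 for the adaptor Skp1a to 0.65 for the scaffold Cul1. Values of all 7 overlapped between the conditions. Of all genes, 20.5% lay higher in serum and 19.4% higher in 2i without overlap.

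Of the 86 genes tested over the 7 lists edgeR called 0, and it called 0 of all genes. DESeq2 called 2 of the 86, Lin28a and Dppa3, and 1.93% of all genes. Of these, Dppa3 had passed the filter through 2i alone.

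**Figure D3:**
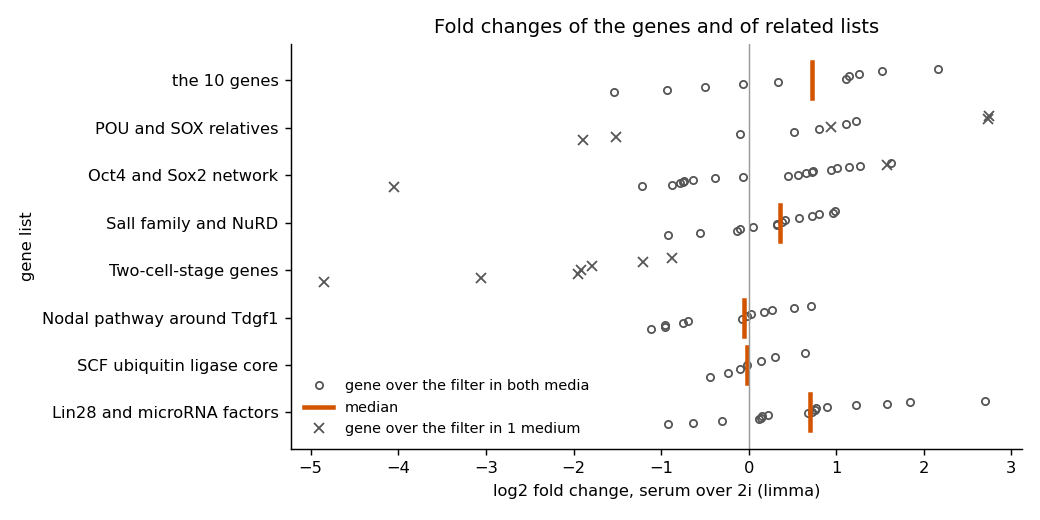
Log2 fold change (serum over 2i, limma) of each tested gene of the 10 genes and of the 7 related lists, with circles for genes over the filter in both media, crosses for genes over it in 1 medium alone, and the median (orange) of lists without crosses. The 7 2-cell-stage genes are all crosses that passed through 2i, which put them below 0. The single genes farthest above 0 are Sox11, Lin28a and Pou4f2, a POU relative named after its values were seen. Of these, Sox11 and Pou4f2 are crosses that passed through serum, which put them above 0.

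The spread between replicates was of the same order as the differences between media. On the log2 scale serum replicate 2 minus serum replicate 1 ran from -0.93 for Fbxo15 to 1.54 for L1td1, and 9 of the 10 genes were higher in serum replicate 2. In 2i, replicate 2 minus replicate 1 ran from -0.75 for Sall4 to 1.73 for Dppa2, and 8 of the 10 were higher in replicate 2. The sign was the same in both media for 7 of the 10 genes. Sall4, Sox2 and Fbxo15 were the exceptions. For L1td1, Fbxo15, Sall4 and Dppa4 the log2 fold change was larger in size than either replicate difference, whereas for the other 6 genes at least 1 replicate difference exceeded it.

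**Figure D4:**
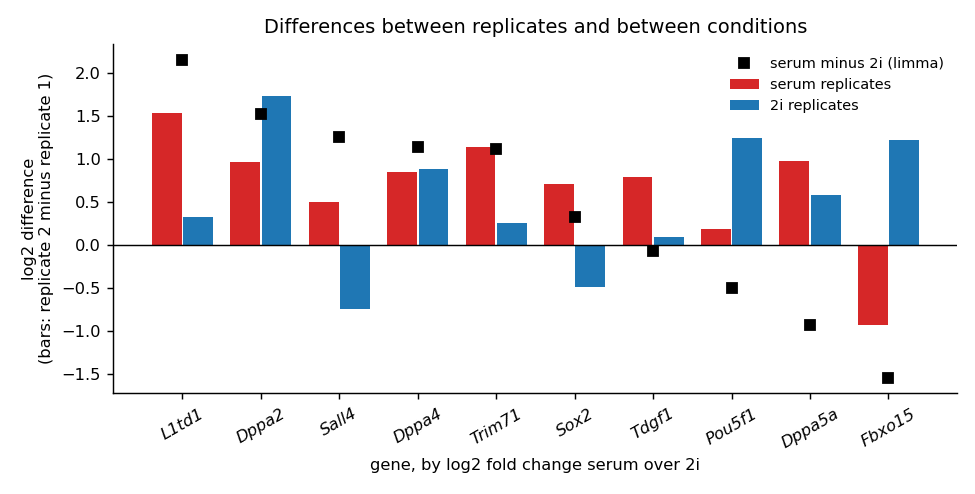
Log2 difference of replicate 2 from replicate 1 in serum (red bars) and in 2i (blue bars) for each gene, with the log2 fold change of serum over 2i (black squares). Serum replicate differences run from -0.93 (Fbxo15) to 1.54 (L1td1) and 2i replicate differences from -0.75 (Sall4) to 1.73 (Dppa2).

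The share of G and C in a gene moved with the libraries. Over all genes, the median log2 fold change was 0.35 in the lowest of 4 equal bins of GC content and -0.33 in the highest. Dppa2 (43.9% GC) and Fbxo15 (44.7%) fall in the lowest bin, and Pou5f1 (57.5%) and Trim71 (59.5%) in the highest. After the log2 values of each library were corrected for GC content and length, the log2 fold change was 2.03 for L1td1, 1.32 for Dppa2, 1.27 for Sall4, 1.18 for Dppa4, 1.16 for Trim71, 0.43 for Sox2, -0.12 for Pou5f1, -0.23 for Tdgf1, -0.88 for Dppa5a and -1.66 for Fbxo15. Every sign was kept. After this correction both serum values of the same 5 genes lay above both 2i values, which held for 18.4% of all genes. Dppa5a then overlapped between the groups, while both 2i values of Fbxo15 lay above both serum values (21.1% of all genes).

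Levels of different genes were compared per kb of exon. Dppa5a was the highest of the 10 in every library, at 12438 to 40901 normalized counts per kb, above all values of the next gene, Tdgf1 (4654 to 8051). Pou5f1 followed with 3747 to 8888, then Fbxo15 with 783 to 4803, L1td1 with 637 to 5422 and Sox2 with 1434 to 2738. Trim71 (398 to 1401), Dppa4 (313 to 1266), Sall4 (177 to 654) and Dppa2 (98.1 to 724) formed the lower end. The ranges of neighbours in this order overlapped except between Dppa5a and Tdgf1 and between Sox2 and Trim71. Among 12953 genes ranked per kb, Dppa5a stood at rank 29 to 118, Tdgf1 at 125 to 301, Pou5f1 at 186 to 409 and Sox2 at 374 to 725, so that these 4 were within the top 1000 in every library. Dppa2 ranged most widely, from rank 1374 in serum replicate 2 to 6756 in 2i replicate 1.

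**Figure D5:**
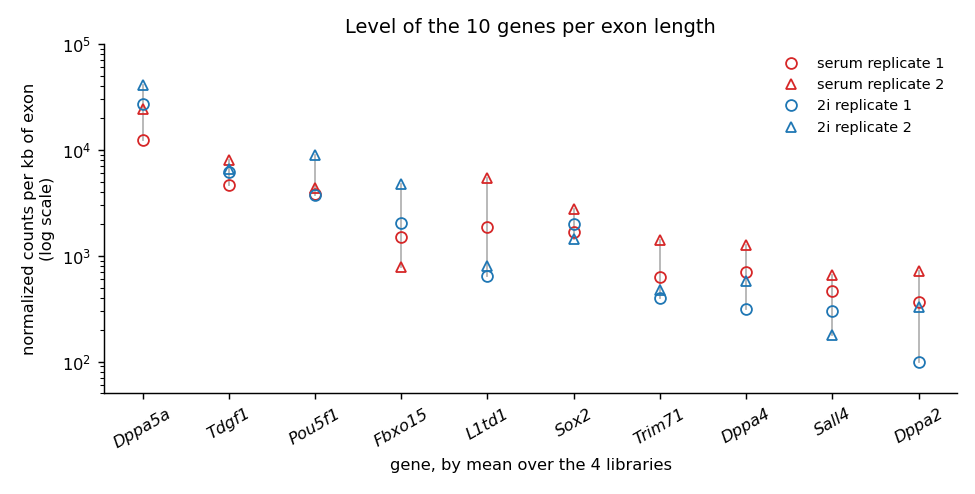
Normalized counts per kb of exon (log scale) of each gene in the 2 serum (red) and 2 2i (blue) libraries, ordered by the mean over all 4, with a grey line over the range. Dppa5a lies above the others, from 12438 to 40901, and L1td1 and Fbxo15 span wide ranges in opposite order of the media.

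Within a library, ratios of levels per kb do not depend on its scaling. Sox2 stood at 0.434 (serum replicate 1), 0.626 (serum replicate 2), 0.537 (2i replicate 1) and 0.161 (2i replicate 2) times the level of Pou5f1, so that 2i replicate 2 alone departed from the rest. L1td1 stood at 0.486 and 1.24 times the level of Pou5f1 in serum, and at 0.170 and 0.0897 times in 2i. Against Fbxo15, L1td1 was 1.25 and 6.93 times as high in the serum pair, and 0.310 and 0.166 times as high in the 2i pair. L1td1 transcript was the more abundant of the pair in both serum libraries and Fbxo15 in both 2i libraries. These genes lay at opposite ends of the fold changes given above, so the shift of their ratio restates those and is no separate result.

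Among genes averaging 1000 normalized counts or more, those whose pattern over the 4 libraries was most like that of Pou5f1 were Tpi1, a glycolytic enzyme, Nme2, a nucleoside diphosphate kinase, Dctn2, a dynactin subunit, Psmb1, a proteasome subunit, and Mesdc2, a chaperone. Their Euclidean distances on the centred log2 scale were 0.0409 to 0.105. In each, as in Pou5f1, 3 libraries were close and 2i replicate 2 was highest. The other genes of the 10 were farther away. Dppa5a was nearest of them at rank 626 of 3194 genes (distance 0.850) and L1td1 farthest at rank 2925 (distance 2.89), while Dppa2 was below that level. These distances rest on 4 libraries that all genes share.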

How the data were processed

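Total RNA of sorted late G1-phase mouse ESCs was depleted of ribosomal RNA, primed at random and sequenced as single-end reads of 43 bases. The authors aligned reads to mm9 with Bowtie and estimated gene counts with MMSeq (versions not given in the sources used here), which divides reads that fit several genes. The deposited values are a signal, gene counts divided by 1 DESeq2 size factor per library (normalized counts). All values were whole multiples of a step per library (100% came out whole within 0.01 of a read), which gave back whole reads. Size factors recomputed from them differed by at most 2.51e-11. Depth was 18939401 to 26570098 whole reads per library.

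Names and positions came from GENCODE vM1 (mm9; 14462 of 14533 genes). All genes averaging 50 or more in either group were fitted with limma (version 3.58.1, under R 4.3.3) after adding a pseudocount of 1 and taking log2, with a variance trend and no replicate term, and fold changes, serum over 2i, understate those of low genes. Calls needed a Benjamini-Hochberg adjusted p-value under 0.05 over all 13005 genes and a 2-fold change. Alternatives used other pseudocounts, filters and scalings, a replicate block, libraries left out, edgeR 4.0.16 and DESeq2 1.42.0 on whole reads, and, added after seeing the data, a GC content and length correction (mgcv 1.9.3) and protein-coding genes alone.

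The members and lists were chosen with earlier results of these data known. Of each list the genes at both ends of the log2 fold change were named, and of genes like Pou5f1 the 5 nearest; the upper end of the Oct4 and Sox2 network list is not reported here. Lin28b and Pou4f2, and Gata4 and Elf5 among the markers, were named after their values were seen. An exact permutation test was not used, because 2 libraries against 2 cannot reach the threshold. Promoter windows were RefSeq's (GRCm38.p6).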

Additional observations from a re-analysis of the deposited data

How the results depend on the processing

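Under 18 alternatives, L1td1, Dppa2, Sall4, Dppa4 and Trim71 kept a positive and Dppa5a and Fbxo15 a negative log2 fold change. Signs turned for Tdgf1 after quantile normalization (0.17), and with 1 library left out for Tdgf1 (-0.46 to 0.33, positive without serum replicate 1), Sox2 (-0.029 to 0.69, negative without serum replicate 2) and Pou5f1 (-1.12 to 0.13, positive without 2i replicate 2). The cause was not tested. Of the 10 genes, 1 (L1td1) was called by DESeq2 on whole reads and 1 (L1td1, adjusted p-value 0.0375) with a replicate block in limma. DESeq2 called 73 genes higher in serum and 178 in 2i, the block 44 and 159, and limma without it 0 and 2, while edgeR called 0 of all genes. After the GC content and length correction the block called 0 of the 10 and 9 of all genes, and L1td1 had a log2 fold change of 2.03 (adjusted p-value 0.333). The labels do not tie the replicate numbers to a shared batch. Over all genes the replicate differences of the 2 media correlated at 0.480, and 2 pairs are too few to decide whether the numbers pair the libraries. For the 10, the count at an unadjusted p-value under 0.05 and 2-fold, 3 in the main test (5.97% of all genes), was 6 with the replicate block (10.96% of all genes), 6 with the block after the correction (8.89%), 1 by limma without trend (6.27%), 1 by edgeR (6.02%), and 0 to 2 with 1 library left out (0 without serum replicate 2, where 1.30% of all genes passed). Where 1 library was left out, the lone library was assumed to vary like the other group. Of the listed pathway genes 2 (Lin28a and Dppa3) were called by DESeq2 (1.93% of all genes) and 2 with the block (1.56% of all genes). Of these, Dppa3 had passed the filter through 2i alone. The median log2 fold change of the 10 genes stayed between 0.26 and 1.10. Upper quartile scaling moved the median of all genes to -0.12, and a mean of at least 200 to 0.12. Replicate differences of these genes reached 1.73 on the log2 scale with 2 libraries per group, and the effect of read depth was not tested.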
